A study of Mus musculus with 4 samples.

Results

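The chemokine system was examined in bone marrow mesenchymal stromal cells (MSCs), for every chemokine ligand and chemokine receptor except Cxcl12. Members were taken by gene symbol, as the genes named Ccl, Cxcl, Cx3cl or Xcl with a number and the receptors named Ccr, Cxcr, Cx3cr, Xcr or Ackr. This gave 60 of the 56980 genes of the count table. Of these, 38 were ligands, 18 were signalling receptors and 4 were atypical receptors. The study asked how myeloid cells of embryonic origin shape the marrow niche, and these libraries describe the MSC side in adult animals. One library was made from each of 4 mice, with 100 cells sorted per mouse as CD45- Ter119- CD31- CD51+ PDGFRa+ Sca1-. The mice were male wild-type animals of 14 weeks, of the strain C57BL/6J bred in-house for 30 years, and no agent is named. All 4 libraries form a single group, so levels and their spread between mice are described, and no treated group or other cell type was compared.

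Chemokines are small secreted proteins that direct the migration of leukocytes by binding receptors that couple to G proteins. Homeostatic chemokines are made steadily and place cells within tissues, whereas inducible chemokines are switched on by inflammatory signals and recruit monocytes, neutrophils or lymphocytes. Atypical receptors bind chemokines without signalling through G proteins, and several of them remove their ligands from the surroundings. In the marrow, stromal cells are the main source of CXCL12, which retains blood stem cells and leukocyte progenitors.

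The libraries held between 22738604 and 43545349 counts on genes. Values are given as counts, or as TPM, which are counts corrected for gene length and scaled to 1000000 per library, where genes are compared. The smallest detectable value was taken as 3 counts, a floor that covers counting error only. The 8 MSC markers, Lepr, Kitl, Pdgfra and Cxcl12 among them, were each above 1 TPM in every mouse, with Ebf3 at 1.03 TPM in mouse 1. They summed to 1124, 4706, 2431 and 1302 TPM in mice 1, 2, 3 and 4. The 6 osteoblast markers had far higher sums, of 139470, 158782, 100069 and 196793 TPM. Most of this came from Bglap, Col1a1 and Ibsp, with means of 107207, 26626 and 13931 TPM. The others were not above all MSC markers. Runx2, at a mean of 44.2 TPM, was below Kitl at 62.1 and Lepr at 65.4 TPM. Sp7 and Alpl, at means of 226 and 744 TPM, were below Cxcl12. The pan-leukocyte gene Ptprc had 2, 2, 0 and 50 counts in mice 1, 2, 3 and 4. Haemoglobin and other erythroid genes, which mark a lineage that the sort depletes, summed to 5066, 35, 1721 and 389 TPM. Of 9 macrophage markers, Adgre1, Csf1r, C1qa, C1qc and Vsig4 were at 0 in every mouse, Cd163 had 325, 564, 717 and 301 counts, and mouse 3 had 176 counts of C1qb and 144 of Cd68. Of 7 endothelial markers, Cdh5, Kdr and Tie1 were at 0 in every mouse, Plvap had 198 counts in mouse 1, and Tek had 58 and 42 counts in mice 2 and 4. Mouse 2 had the highest summed level of the members described here.

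A median above 1 TPM over the 4 mice was reached by 12 of the 60 members, or 20%. Over all genes with a length the share was 22.9%, and over protein-coding genes 44.2%. Of the 12 members, 10 were ligands, 2 were atypical receptors and none was a signalling receptor. Without mouse 2, 8 members reached it, and Ccl7, Cxcl1, Cxcl9 and Cxcl10 did not. When 10 counts were also required in every mouse, 6 remained. The 6 members above 1 TPM in every mouse were Ccl2, Cxcl14, Ackr4, Ccl19, Cx3cl1 and Ccl9, which is 10% of the members against 30.1% of protein-coding genes. In the other direction, 36 members, or 60%, had fewer than 3 counts in every mouse, against 37.3% of protein-coding genes, and 29 of them were at 0 throughout. In a sorted bulk library, fewer cells expressing a gene and less RNA in each cell cannot be told apart.

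**Figure D1:**
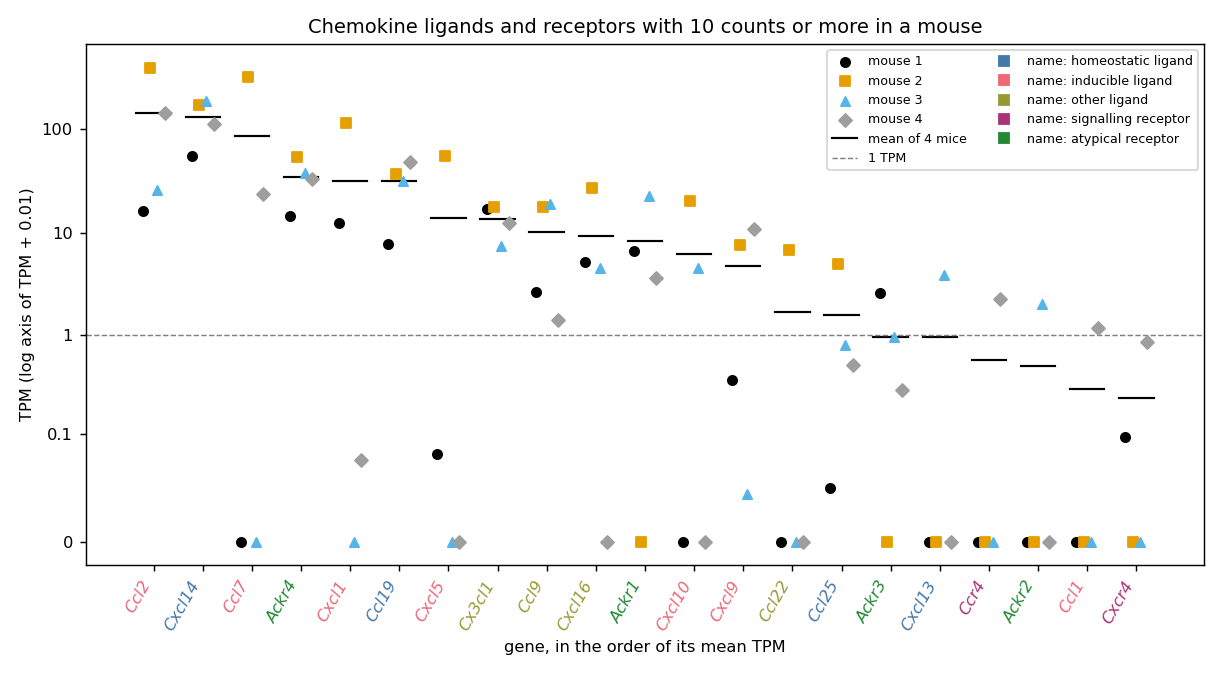
TPM (log axis, with 0.01 added) of the 21 members with 10 counts or more in any mouse, ordered by mean TPM. Each symbol is 1 of the 4 mice, the bar is their mean and the colour of a name gives its class. Ccl2 and Cxcl14 had means of 146 and 132 TPM, and many of the other members were at 0 in at least 1 mouse.

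Among the 10 homeostatic ligands, 4 had 10 counts or more in any mouse, against 60.1% of protein-coding genes. Cxcl14, a constitutive CXC chemokine of stroma and epithelia, had 54.7, 172, 191 and 112 TPM in mice 1, 2, 3 and 4, a mean of 132 ± 61.5 TPM (SD, n = 4). Mouse 1 was the lowest, and the highest mouse was 3.48-fold above it. The gene lies at chr13:56288643-56296551 (GRCm38, minus strand) and its longest transcript has 4 exons. Its median level was higher than that of 98.6% of genes. Ccl19, which guides dendritic cells and naive T cells through CCR7, had 7.67, 37.2, 31.9 and 48.2 TPM, or 31.3 ± 17.1 TPM (SD, n = 4). Mouse 1 was again the lowest and the other mice lay close together. The mouse genome carries near-identical copies of Ccl19, and 88.9% of its longest transcript matched other genes at 95% identity or more. One of these copies, Gm12407, itself had 0, 105, 0 and 130 counts, so that the count of Ccl19 is uncertain.

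Ccl25, the ligand of CCR9 known from thymus and gut, had 3, 408, 103 and 39 counts, or 1.56 ± 2.26 TPM (SD, n = 4), with a mean of 0.443 TPM without mouse 2. It was the only member below the 1 TPM median that had at least 3 counts in every mouse. Its level depends on the gene length, since Ccl25 passed the median cutoff when the longest transcript was used in place of the merged exons of all transcripts. Cxcl13, the CXCR5 ligand that organises B cell follicles, had 76 counts in mouse 3 and 0 in the other mice. The other 6 homeostatic ligands were at 0 in every mouse. For Ccl21a, Ccl21b, Ccl21d, Ccl27a and Ccl27b this is no measure of absence, because these genes match other gene copies over their whole longest transcript and only uniquely mapped read pairs were counted.

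Of the 20 inducible ligands, 7 had 10 counts or more in any mouse, against 60.1% of protein-coding genes. Of these 7, 5 were highest in mouse 2, as were 3 of the 4 such ligands that are neither homeostatic nor inducible. Mouse 2 was the highest for 23.2% of protein-coding genes with 10 counts or more in any mouse. Ccl2, which recruits monocytes through CCR2, was the one inducible ligand present above 1 TPM in all mice. Its values in mice 1, 2, 3 and 4 were 16, 398, 25.9 and 144 TPM, from 320, 5043, 509 and 1688 counts, with a mean of 146 ± 178 TPM (SD, n = 4). The highest mouse was 24.9-fold above the lowest, so that the mean is set largely by mouse 2. Ccl2 lies at chr11:82035571-82037453 (GRCm38, plus strand). Ccl7, another CCR2 ligand, begins 8.3 kb beyond its end and had 0, 2871, 0 and 195 counts. Mice 2 and 4, where Ccl7 was found, were also the highest mice for Ccl2. In TPM, Ccl2 was 1.24-fold above Ccl7 in mouse 2 and 6.09-fold above it in mouse 4. With 3 counts as the floor of a library, Ccl7 in mouse 2 lay 1513-fold above the floor of mouse 1. It lay 1486-fold above the floor of mouse 3. That floor covers counting error only, so these folds do not bound the difference in RNA. Without mouse 2, the mean was 61.8 TPM for Ccl2, and for Ccl7 it fell from 86.4 to 7.85 TPM.

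The neutrophil attractants that act on CXCR2 were found in fewer mice. Cxcl1 had 410, 2397, 0 and 1 counts, or 31.8 ± 55.7 TPM (SD, n = 4). Its neighbour Cxcl5 had 2, 1138, 0 and 0 counts, with nearly all of them in mouse 2. Without mouse 2, the mean of Cxcl1 was 4.16 TPM, and that of Cxcl5 fell from 13.7 to 0.0203 TPM. Cxcl2 and Cxcl3, which lie on the same stretch of chromosome 5 and also act on CXCR2, stayed below 3 counts in every mouse.

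The CXCR3 ligands, which draw activated T cells and NK cells and are known as interferon targets, differed from each other across mice. Cxcl10 had 0, 509, 176 and 0 counts, or 6.21 ± 9.64 TPM (SD, n = 4), so that it was counted in mice 2 and 3 alone, with a mean of 1.51 TPM without mouse 2. Cxcl9, 18.6 kb away, had 19, 253, 1 and 338 counts, or 4.69 ± 5.37 TPM (SD, n = 4), and was highest in mice 4 and 2. Without mouse 4 its mean was 2.64 TPM. Mouse 2 was the one mouse where both were well above 3 counts. The exons of Cxcl10 share 5.91% of their bases with Art3 on the opposite strand, counting took no account of strand, and Art3 had 103, 458, 73 and 0 counts. Ccl1, the CCR8 ligand, had 29 counts in mouse 4 and 0 in the others, on an annotated gene that spans much of the Ccl2 neighbourhood. In all, 12 of the 20 inducible ligands, or 60%, had fewer than 3 counts in every mouse, against 37.3% of protein-coding genes. Ccl3, Ccl4, Ccl5, Ccl11 and Ccl20 were among them.

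Promoter sequences are shown for 3 inducible ligands that varied between mice, for Cxcl3 as an uncounted neighbour of Cxcl1, and for Cxcl14 as a ligand counted in every mouse. Each is the 250 bases before the RefSeq start of the gene on GRCm38.p6, written in the direction of the gene. Cxcl1 lies at chr5:90890995-90891244 and Cxcl3 at chr5:90785851-90786100, both on the plus strand. Cxcl9 lies at chr5:92328080-92328329, Cxcl10 at chr5:92348890-92349139 and Cxcl14 at chr13:56296552-56296801, all on the minus strand. Capitals mark every match, on either strand, to the NF-kB consensus, the interferon response core GAAANNGAA, the gamma interferon activated site TTCNNNGAA or the TATA box TATAAA.
Cxcl1: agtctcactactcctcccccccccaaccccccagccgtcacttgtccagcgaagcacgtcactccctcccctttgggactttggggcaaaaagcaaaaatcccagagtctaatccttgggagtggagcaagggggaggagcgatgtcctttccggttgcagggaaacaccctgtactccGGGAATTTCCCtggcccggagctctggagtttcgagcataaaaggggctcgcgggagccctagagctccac
Cxcl3: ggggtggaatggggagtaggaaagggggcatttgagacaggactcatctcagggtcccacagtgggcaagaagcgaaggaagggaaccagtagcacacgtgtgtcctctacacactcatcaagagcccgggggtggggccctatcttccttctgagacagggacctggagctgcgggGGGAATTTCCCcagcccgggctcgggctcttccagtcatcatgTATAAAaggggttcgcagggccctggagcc
Cxcl9: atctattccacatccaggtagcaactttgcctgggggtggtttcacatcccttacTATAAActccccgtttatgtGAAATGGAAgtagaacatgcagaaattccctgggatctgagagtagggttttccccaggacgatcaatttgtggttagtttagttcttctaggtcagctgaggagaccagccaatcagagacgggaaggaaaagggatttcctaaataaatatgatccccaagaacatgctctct
Cxcl10: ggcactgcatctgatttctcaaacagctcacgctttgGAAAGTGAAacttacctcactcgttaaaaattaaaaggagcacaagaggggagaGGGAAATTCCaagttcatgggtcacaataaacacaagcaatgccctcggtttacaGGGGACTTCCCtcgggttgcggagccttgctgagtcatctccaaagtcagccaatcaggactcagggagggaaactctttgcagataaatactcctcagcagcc
Cxcl14: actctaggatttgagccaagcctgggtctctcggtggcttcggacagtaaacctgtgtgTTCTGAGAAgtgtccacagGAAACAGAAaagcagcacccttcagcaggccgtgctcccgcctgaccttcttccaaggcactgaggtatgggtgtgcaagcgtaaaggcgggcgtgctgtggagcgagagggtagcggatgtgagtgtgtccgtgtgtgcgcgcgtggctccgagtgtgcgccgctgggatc

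The Cxcl1 and Cxcl3 promoters both held an NF-kB match, whose first base lay 71 and 73 bases before the start, although Cxcl1 had up to 2397 counts and Cxcl3 had none in any mouse. Cxcl10 held the NF-kB consensus at 159 and 104 bases before the start and the interferon core at 213 bases. Cxcl9 held the interferon core at 175 bases. TATA box matches lay at 30 bases in Cxcl3 and at 195 bases in Cxcl9. Cxcl14, which was counted in every mouse, held the interferon core at 172 bases and the gamma interferon activated site at 191 bases. In the palindromic matches the consensus was also met on the opposite strand, 1 base further on.

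RefSeq promoters were matched for 45 of the 60 members. Some have several starts, which gave 52 promoters. The NF-kB consensus was present in 11 of the 52, and in 7.25% of all 32851 promoters of the same length. The interferon core was present in 8 of the 52 and in 7.13% of all promoters. The gamma interferon activated site was present in 3 of the 52 and 7.02% of all, and the TATA box in 14 of the 52 and 12.4% of all. Of the 17 matched members that had 10 counts or more in any mouse, 5 held the NF-kB consensus and 5 the interferon core. Different motifs can overlap in a promoter, and a match is a stretch of letters, not a bound site.

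Of the remaining 8 ligands, 4 had 10 counts or more in any mouse, against 60.1% of protein-coding genes. Cx3cl1, the membrane-anchored chemokine fractalkine, had 16.8, 17.7, 7.33 and 12.3 TPM, or 13.5 ± 4.74 TPM (SD, n = 4). It varied least of the members with a mean of 1 TPM or more, with its highest mouse 2.41-fold above its lowest. Ccl9, a CC chemokine of rodents that binds CCR1, had 2.63, 17.6, 18.8 and 1.40 TPM, or 10.1 ± 9.35 TPM (SD, n = 4). Mice 2 and 3 were high and mice 1 and 4 were low for Ccl9, the same division as for Cxcl10.

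Cxcl16, the other membrane-anchored chemokine, had 274, 911, 237 and 0 counts, or 9.20 ± 12.2 TPM (SD, n = 4), with a mean of 3.23 TPM without mouse 2. Its exons share 18.3% of their bases with the antisense gene Zmynd15, counted 0, 83, 47 and 0 times. Ccl22, the CCR4 ligand of macrophages and dendritic cells, had 174 counts in mouse 2 and 0 in the others. Its gene ends 20.3 kb before Cx3cl1, which was counted in every mouse, and Ccl17, the other CCR4 ligand, lies 28.0 kb beyond Cx3cl1 and had fewer than 3 counts in every mouse.

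Many chemokine genes lie in clusters, and counted and uncounted members lay side by side there. Of the 6 members in the 270 kb around Ccl2 on chromosome 11, 3 had 10 counts or more in any mouse and the other 3, Ccl11, Ccl12 and Ccl8, had none, where 10 counts or more were reached by 60.1% of protein-coding genes. Ccl9 was the one member counted among the 5 of a second cluster of 139 kb on chromosome 11, where Ccl3, Ccl4, Ccl5 and Ccl6 were at 0. Of the 5 members in 147 kb on chromosome 5, Cxcl1 and Cxcl5 were counted.

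**Figure D2:**
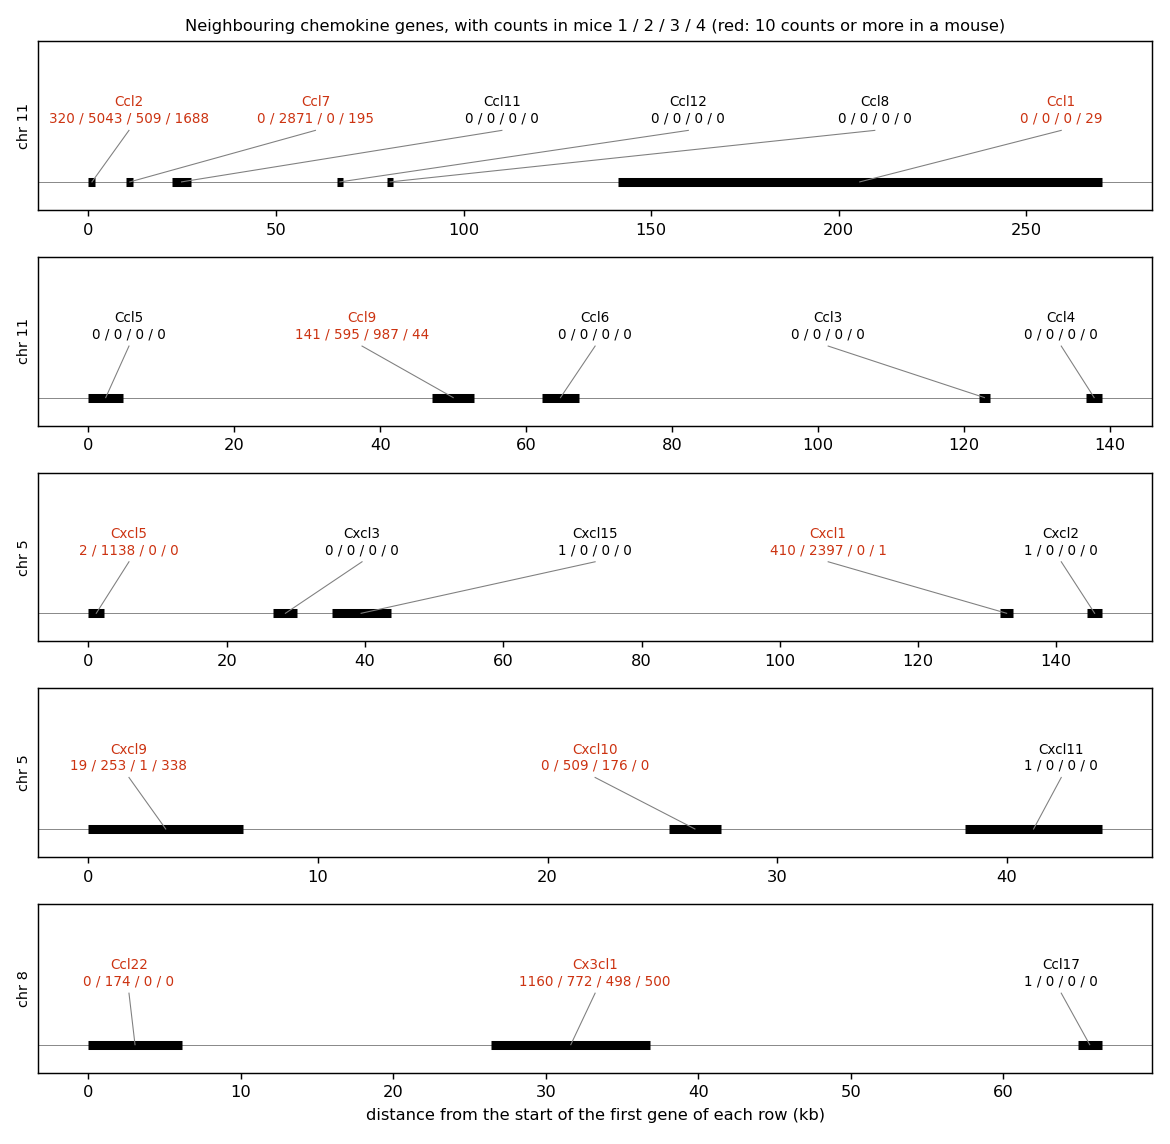
Position of chemokine genes (black bars, with distance in kb from the start of the first gene of each row) in 5 stretches of the GRCm38 genome. The numbers under each name are its counts in mice 1, 2, 3 and 4, in red where a mouse had 10 counts or more. Ccl2 and Ccl7 were counted beside Ccl11, Ccl12 and Ccl8 at 0.

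The 18 signalling receptors were close to absent. None had a median above 1 TPM, against 44.2% of protein-coding genes. Fewer than 3 counts in every mouse were found for 14, or 77.8%, against 37.3% of protein-coding genes, and 11 were at 0 throughout. Cxcr4, the signalling receptor of CXCL12, had 3, 0, 0 and 16 counts, or 0.238 ± 0.415 TPM (SD, n = 4), with a mean of 0.0314 TPM without mouse 4. Ccr4, a receptor of T cells, had 73 counts in mouse 4 and 0 in the others. Mouse 4 was also the mouse with 50 Ptprc counts. Its T and NK cell markers were all at 0, and the B lineage markers Cd79a and Vpreb1 had 22 and 9 counts there. The other 5 of the 7 B lineage markers were at 0 in every mouse. The part of leukocyte RNA in these receptor counts was not tested. The summed level of the 18 receptors was 0.0943, 0.0772, 0.109 and 3.24 TPM, a mean of 0.880 TPM that falls to 0.0935 TPM without mouse 4.

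All 4 atypical receptors had 10 counts or more in some mouse, as did 21 of the 60 members and 60.1% of protein-coding genes. Ackr4, which scavenges CCL19, CCL21 and CCL25, was found in every mouse. It had 14.6, 53.8, 38.2 and 33.1 TPM, or 34.9 ± 16.2 TPM (SD, n = 4), from 1378, 3222, 3547 and 1842 counts. Its median level was higher than that of 95.5% of genes. With the longest transcript as its length, the mean was 54.5 TPM. Its exons share 8.90% of their bases with the antisense gene Acad11 (301 to 805 counts). Of the ligands that ACKR4 removes, Ccl19 and Ccl25 were counted in the same 4 libraries, while Ccr7 was at 0 in every mouse and Ccr9 had at most 7 counts.

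Ackr1, which holds many inflammatory chemokines and is known from erythroid cells and venular endothelium, had 164, 0, 553 and 53 counts, or 8.27 ± 10 TPM (SD, n = 4). Without mouse 3 the mean was 3.43 TPM. Mouse 2, with no Ackr1 count, had an erythroid sum of 35 TPM, and mice 1, 3 and 4 had 5066, 1721 and 389 TPM. The 7 endothelial markers summed to between 0.0465 TPM in mouse 3 and 5.78 TPM in mouse 1, where Plvap alone gave 5.66 TPM. The parts of erythroid and endothelial RNA in the Ackr1 counts were not tested. Of the exonic bases of Ackr1, 25.7% are shared with Cadm3, which had at most 3 counts. Ackr3, which binds and clears CXCL12, had 153, 0, 55 and 10 counts, or 0.959 ± 1.16 TPM (SD, n = 4), with a mean of 0.413 TPM without mouse 1. Ackr2, a scavenger of inflammatory CC chemokines, had 108 counts in mouse 3 and 0 in the others.

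In TPM, the atypical receptors made up 99.6, 99.9, 99.8 and 92.0% of the summed receptor level in mice 1, 2, 3 and 4. Ackr4 alone made up 61.0, 99.9, 59.6 and 82.2%. The summed level of atypical receptors was 44.6 ± 17.8 TPM (SD, n = 4).

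**Figure D3:**
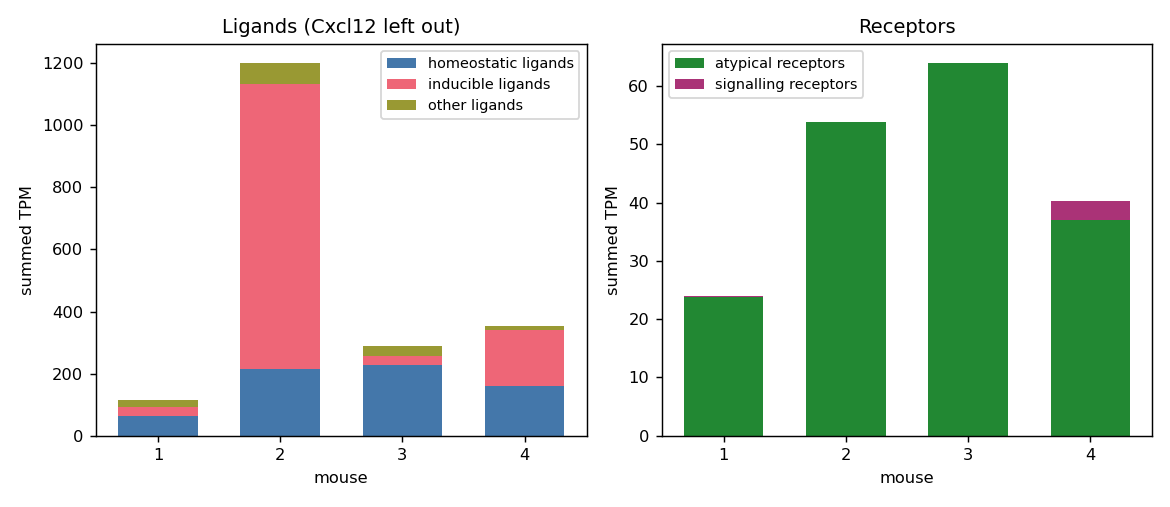
Summed TPM of the 3 classes of ligands (left, Cxcl12 left out) and of the 2 classes of receptors (right) in each mouse, as stacked bars from 0. Inducible ligands reached 918 TPM in mouse 2 and 28.9 to 179 TPM in the others, and signalling receptors are visible above the atypical ones in mouse 4, at 3.24 TPM.

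The 38 ligands summed to 116, 1201, 288 and 354 TPM in mice 1, 2, 3 and 4, a mean of 490 TPM that falls to 253 TPM without mouse 2. Homeostatic ligands gave 62.4, 214, 227 and 161 TPM of this. Inducible ligands gave 28.9, 918, 30.4 and 179 TPM, with a mean of 289 TPM, or 79.6 TPM without mouse 2. As a share of all ligands except Cxcl12, the inducible class was thus 24.9, 76.4, 10.6 and 50.6%. Cxcl12 itself, at 983, 4329, 2224 and 1079 TPM, still made up 89.4, 78.3, 88.5 and 75.3% of all chemokine ligand TPM.

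3 differences between single genes were tested within mice, on the log2(TPM + 1) scale, with a sign-flip permutation test, exact and two-sided. Cxcl12 was above Cxcl14 by 3.89 ± 0.62 (SD, n = 4), in 4 of 4 mice, with exact p = 0.125 and 0.188 after Benjamini-Hochberg adjustment over the 3. Ackr3 was below Ackr4 in 4 of 4 mice, with a mean difference of -4.24 ± 1.54 (SD, n = 4), exact p = 0.125 and adjusted p = 0.188. With 4 mice 0.125 is the smallest p this test can give, so neither difference could pass 0.05. Ackr3 and Cxcr4, the atypical and the signalling receptor of CXCL12, differed by 0.54 ± 1.0 (SD, n = 4), with Ackr3 higher in 2 mice and lower in 1 (exact p = 0.5, adjusted p = 0.5). In the order of the mean levels of the 12 expressed members, none of the 11 neighbouring pairs differed by more than 1 SD of their within-mouse difference.

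The members varied more between mice than protein-coding genes of like level. The median coefficient of variation was 138% for the 6 members with a mean from 1 to 10 TPM and 84.7% for protein-coding genes in that range. From 10 to 100 TPM it was 92.7% for 7 members and 44% for protein-coding genes, and from 100 to 1000 TPM it was 84.2% for Ccl2 and Cxcl14 and 24.7% for protein-coding genes. Counting error alone, computed from read counts, gave medians between 2.01 and 7.87% for the members. It leaves out the sampling of cells and of RNA molecules, and PCR copies are not independent molecules. Cx3cl1 was the one member below the median of its range, and Ackr4, at 46.4%, and Ccl19, at 54.8%, were the closest above it in theirs.

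**Figure D4:**
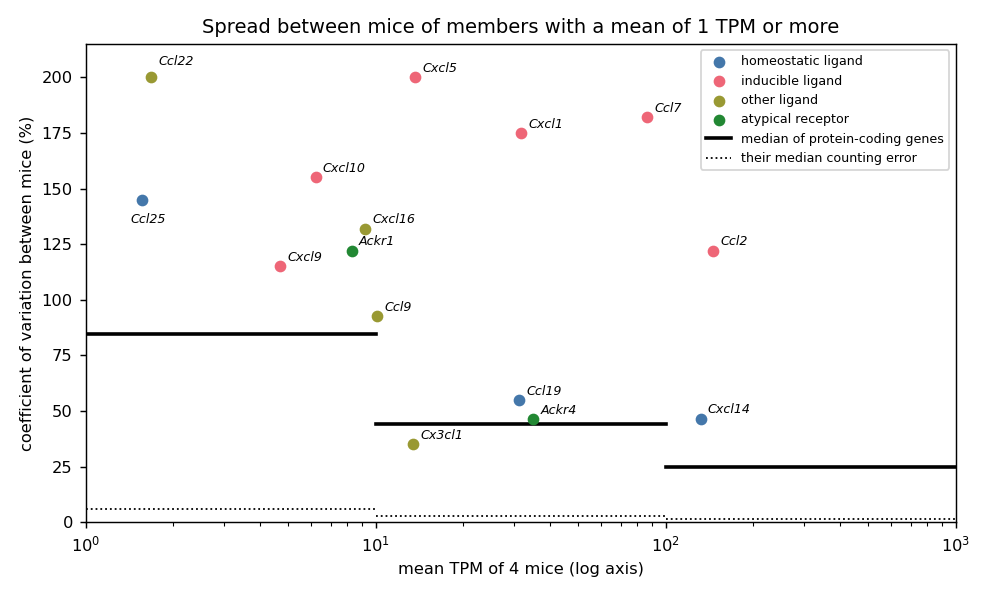
Coefficient of variation between the 4 mice (%) against mean TPM (log axis) for the 15 members with a mean of 1 TPM or more. Solid lines give the median of protein-coding genes in each 10-fold range of level and dotted lines their median counting error. Cx3cl1 lies below its line, and the inducible ligands Cxcl5, Ccl7 and Cxcl1 lie far above theirs.

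Presence in some mice and absence in others was common. Of the 21 members with 10 counts or more in a mouse, 14, or 66.7%, had fewer than 3 counts in another. Among protein-coding genes with 10 counts or more in a mouse the share was 37.5%. By class, the pattern was seen in 6 of 7 inducible ligands, 1 of 4 homeostatic ligands, 2 of 4 other ligands, both signalling receptors counted and 3 of 4 atypical receptors. Of the 21 members, 10 had their highest value in mouse 2, 5 in mouse 3, 5 in mouse 4 and 1 in mouse 1. Mouse 2 was the highest for 23.2% of protein-coding genes.

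Each ligand was set beside its own signalling receptor in the same library. Of 41 ligand and receptor pairs among the members, 17 had a ligand with at least 3 counts in any mouse. These joined 15 ligands to 12 receptors, and 9 of the 12 receptors had fewer than 3 counts in every mouse. The other 3 compare with 4 of all 18 signalling receptors that had at least 3 counts in any mouse. Ccl2 and Ccl7 were counted without Ccr2, Ccl19 without Ccr7, Cx3cl1 without Cx3cr1, Cxcl9 and Cxcl10 without Cxcr3, and Cxcl16 without Cxcr6. Ccl22 was counted in mouse 2 and its receptor Ccr4 in mouse 4. The 1 pair with both genes at 3 counts or more in a mouse was Ccl25 and Ccr9, with 39 and 7 counts in mouse 4, a pair singled out after its values were seen. Both overlap genes on the opposite strand, Ccl25 with Elavl1 over 2.74% of its exonic bases and Ccr9 with Slc6a20a over 0.214%, and these had 2779 and 154 counts in mouse 4.

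**Figure D5:**
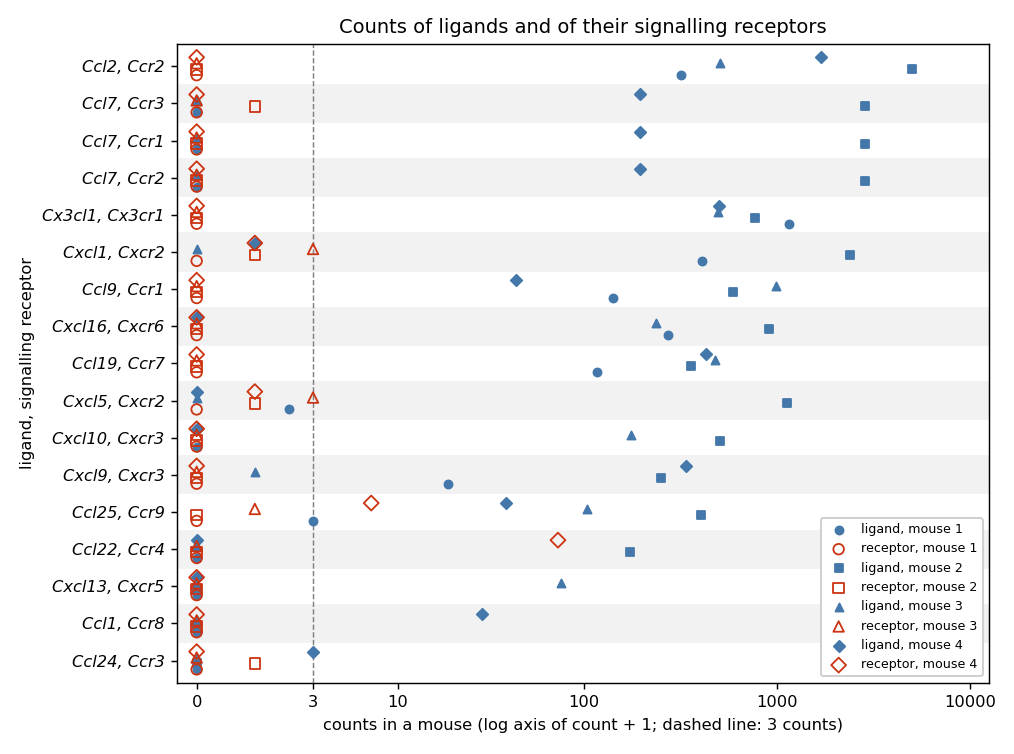
Counts of a ligand (filled) and of its signalling receptor (open) in each mouse, on a log axis of count + 1, for the 17 pairs whose ligand had at least 3 counts in a mouse. The dashed line marks 3 counts. Ligands spread up to 5043 counts, and among the receptors Ccr4 and Ccr9, in mouse 4, lie clearly to the right of the line.

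Genes that act with chemokines were read from a list of 26. Of these, 14 had a median above 1 TPM and 11 were above 1 TPM in every mouse, with a median level of 2.14 TPM over the list. The widely used signalling genes Gnai2, which encodes an inhibitory G protein subunit, and Rac1, a small GTPase of cell movement, had 62.0 ± 19.3 and 72.7 ± 18.2 TPM (SD, n = 4). Elmo1, which activates Rac in moving cells, had 21.4 ± 6.38 TPM (SD, n = 4), and Rgs2, a regulator of G protein signalling, 18.7 ± 12.6 TPM (SD, n = 4). Plcb2, Ptk2b and Rgs1 were at 0 in every mouse, and Rac2 had 140 counts in mouse 1 and 0 in the others. Mif, a cytokine that also binds chemokine receptors, had 239 ± 57.3 TPM (SD, n = 4). Ccrl2, a chemokine-receptor-like protein, had 311, 0, 180 and 0 counts. The platelet chemokines Pf4 and Ppbp, whose symbols place them outside the 60, had at most 5 counts in a mouse.

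The inducible ligands were set beside other inducible genes of the same libraries. Of 16 NF-kB response genes, 12 had a median above 1 TPM, and the list summed to 599, 1582, 1494 and 570 TPM in mice 1, 2, 3 and 4. Mouse 2 was the highest for Nfkbia, the inhibitor that NF-kB itself induces, at 639 TPM, and the other mice lay between 180 and 366 TPM. Vcam1 was also highest in mouse 2, at 197 TPM. Zfp36 and Ier3 were highest in mouse 3, at 501 and 474 TPM, against 301 and 310 TPM in mouse 2. Mouse 3, whose list sum was near that of mouse 2, had 30.4 TPM of inducible ligands against 918 TPM. Il6, Tnf, Lif and Il1b, cytokines that are often induced with Ccl2 and Cxcl1, had at most 1 count in any mouse. The 10 interferon response genes summed to 60.1, 361, 336 and 44.6 TPM, with 8 of them above a median of 1 TPM. Mice 2 and 3, with the higher sums, were those with Cxcl10 counts, whereas Cxcl9 was highest in mouse 4, where the sum was the lowest. The 10 early response genes, which mark stress and dissociation, were all above a median of 1 TPM and summed to 2295, 3784, 5269 and 2250 TPM. The part of these programmes in the level of any chemokine was not tested.

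Markers of other cells were read in the same libraries. The 9 macrophage markers summed to 3.92, 9.54, 23.7 and 6.34 TPM, with 5 of 9 at 0 in every mouse. Cd163 alone gave 3.38, 9.28, 7.6 and 5.33 TPM of this, and in mouse 3 C1qb and Cd68 gave 9.36 and 6.63 TPM. The 8 neutrophil markers summed to 60.3, 37.1, 26.7 and 28.7 TPM, of which Mmp8 alone gave 20.6, 17.4, 19.8 and 20.9 TPM. Elane, S100a8 and Camp had 261, 142 and 120 counts in mouse 1, and Ngp and Ltf were at 0 in every mouse. T and NK cell markers summed to at most 2.75 TPM, in mouse 3, where Klrb1c alone gave 2.74 TPM. B lineage markers summed to 3.62 TPM in mouse 3, from Vpreb1 alone, 2.19 TPM in mouse 4 and 0 in mice 1 and 2. Adipocyte-lineage genes summed to 199, 962, 439 and 234 TPM, highest in mouse 2. There Lpl, the lipoprotein lipase, had 290 TPM and Pparg, the regulator of fat cell formation, 26.5 TPM. In the same list, Adipoq had 184, 635, 399 and 185 TPM, Cebpa 0.151, 11.0, 5.51 and 3.67 TPM, and Plin1 was at 0 in every mouse. The MSC markers summed to 1124, 4706, 2431 and 1302 TPM, likewise highest in mouse 2. Cxcl12 makes up most of that sum, and the 6 osteoblast markers summed to between 100069 and 196793 TPM. Ly6a, the gene of the Sca1 antigen that the sort excludes, had 1, 120, 0 and 144 counts, and mice 2 and 4 were also those with Ccl7. Their libraries were the smaller ones, with 26050230 and 22738604 counts, against 43545349 and 42747050 in mice 1 and 3. Whether the differences in the sorted cells or in depth go with the inducible chemokines was not tested.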

How the data were processed

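RNA was measured in 4 libraries of sorted bone marrow MSCs, 1 from each mouse, made from polyA RNA with oligo-dT priming, PCR amplification and tagmentation. The authors deposited raw counts per Ensembl gene, without normalization. The submitters' processing notes name bcl2fastq 2.20.0, STAR 2.7.10, featureCounts of Subread 1.6.5 and the build GRCm39. By the study's methods, uniquely mapped pairs were counted on exons, with no strand option named. The members, the gene lists and the comparisons were chosen with earlier results of these data known.

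TPM was computed from the counts in Python 3.11.15 with numpy 2.4.6 and pandas 2.3.3, using merged exon lengths of GENCODE M21 on GRCm38, joined by gene identifier. Because the counts use GRCm39, a length can be off, and no coordinates were converted. TPM leaves out 4855 listed genes that have no length there. A gene was called expressed at a median above 1 TPM, the cutoff of the study's methods. Every member past this cutoff is named with its values, and every other member with at least 10 counts in any mouse with its counts. BLAST 2.17.0 found near-identical copies, with a minimum identity of 95% across 100 bases. One item is not reported here. Promoters are RefSeq sequences on GRCm38.p6. The TPM, cutoff and test code was tested on simulated data. With 22738604 to 43545349 counts per library, 3 counts lie between 0.0689 and 0.132 counts after scaling a library to 1000000. PCR copies are not independent molecules. The p-values take the 4 mice as units and ask whether the mean within-mouse difference is 0. Alternatives were another length, no length, a protein-coding denominator, edgeR 4.0.16 and DESeq2 1.42.0 scaling factors (R 4.3.3), other cutoffs, a count minimum, means for medians and medians for means, another pseudocount and leaving out each mouse. The sums of single ligand classes under these alternatives were added after seeing the data.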

Additional observations from a re-analysis of the deposited data

Results flagged for a closer look

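For each of 21 members and 6 summed levels, the gap between the highest or lowest mouse and its nearest neighbour was divided by the range of the 4 mice. Dixon's 95% limit for 4 values is one that chance passes in about 1 of 20 groups of normally distributed values. It was passed by 10 of the 21 members, or 47.6%, always by the highest mouse, and by 22.1% of the 13168 protein-coding genes with 10 counts or more in a mouse. Genes at 0 in all mice but 1 pass it by construction.

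Mouse 2 was the high one for Ccl7, with a gap of 0.927 of the range, Cxcl1 with 0.892, Cxcl5 with 0.999, Ccl22 with 1.0 and Ccl25 with 0.841. The summed level of inducible ligands, with a gap of 0.831, was also set apart by mouse 2. Mouse 3 was the high one for Cxcl13 and for Ackr2, each with a gap of 1.0. Mouse 4 was the high one for Ccr4 and Ccl1, each with a gap of 1.0, for Cxcr4 with 0.89 and for the summed level of signalling receptors with 0.99. Ccl2 did not pass the limit, although its highest mouse was 24.9-fold above its lowest.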

How the results depend on the processing

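The count of members with a median above 1 TPM was 12, and ranged from 8 to 11 when a mouse was left out and from 9 to 15 under other lengths, scalings, cutoffs and the mean over mice. It was 6 when 10 counts were also required in every mouse. The 6 members above 1 TPM in every mouse remained so in every alternative except a cutoff of 5 TPM, which left 5, without Ccl9. The summed level of atypical receptors, 44.6 TPM, was 63.6 TPM with the length of the longest transcript and 86.5 CPM without a length. Of 210 alternative means of single members, 5 moved by more than the SD between mice. That SD is itself set by single mice for many members, whose means without mouse 2 moved far more, such as Ccl7 from 86.4 to 7.85 TPM, Cxcl1 from 31.8 to 4.16 TPM and Cxcl5 from 13.7 to 0.0203 TPM, and Ackr1 without mouse 3 from 8.27 to 3.43 TPM. The 5 were Ackr4, at 54.5 TPM and 79.8 CPM, and, as CPM, Ccl19 at 11.7, Cx3cl1 at 22.5 and Ccl25 at 4.96. The 3 tested differences kept their direction in all 30 alternatives, and with 3 or 4 mice none could pass 0.05. Levels under 3 counts cannot be told from 0 at this depth, and 4 libraries of 100 cells limit what can be said of members counted in 1 mouse.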
